A study of Mus musculus with 6 samples.

Results

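The genes described here are p53 itself, 7 genes it is known to act on, and the cell-cycle inhibitors of the Ink4/Arf locus, measured in mouse embryonic fibroblasts. They were chosen by name as Trp53, Mdm2, Cdkn1a, Cdkn2a, Cdkn2b, Ccng1, Trp53inp1, Bax, Bbc3 and Fas, and all 10 symbols were found among the 25793 genes of each count table. The fibroblasts were primary cells from E13.5 embryos, cultured with 10% fetal bovine serum, and the parents carried mutant alleles of Sptbn1 or Smad3. Sptbn1 encodes beta-2-spectrin (β2SP in the labels), a membrane-skeleton protein that is known to act as an adaptor for SMAD proteins, and Smad3 encodes a DNA-binding SMAD that carries the TGF-beta signal to the nucleus. The libraries were labelled β2SP+/- (Sptbn1 heterozygote), β2SP-/- (Sptbn1 homozygote), SMAD3+/- (Smad3 heterozygote), SMAD3-/- (Smad3 homozygote), β2SP+/- ; SMAD3+/- (double heterozygote) and wt (WT). There was 1 library per genotype. The labels do not give the deleted exons, the number of embryos behind a library or the passage number.

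The transcription factor p53 is held at a low level by the ubiquitin ligase MDM2 and accumulates after DNA damage and other stress, when it raises transcription of genes that stop the cell cycle or promote cell death. The Ink4/Arf locus makes inhibitors of the CDK4 and CDK6 kinases and ARF, which binds MDM2, and its transcripts are known to build up as mouse embryonic fibroblasts are passaged towards senescence. The p53 protein is regulated mostly after translation, so the amount of its mRNA is not a measure of its activity.

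The promoter sequences of the members are shown first because p53 acts by binding DNA. Matches to the decamer it recognises can be sought there apart from the counts, and not every member had one. The RefSeq promoter windows (build GRCm38.p6, 250 bases before to 50 after each start) covered 9 of the 10 members, and Trp53inp1 was without one. An exact match to the p53 decamer consensus, which is its own reverse complement and so reads alike on both strands, was present for 5 of these 9, against 9.55% of 27025 genes with a window and 8.36% of the 32851 windows. These 5 members are known or long-studied targets or p53's own gene, so their share describes genes picked for that knowledge. Capitals mark the decamers, and each sequence runs 5′ to 3′ on the strand of the gene.
Trp53, chr11:69580269-69580308, plus strand: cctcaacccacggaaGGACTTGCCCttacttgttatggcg
Cdkn1a, chr17:29090891-29090952, plus strand: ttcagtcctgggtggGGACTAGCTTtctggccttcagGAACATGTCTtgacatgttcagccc
Mdm2, chr10:117710920-117710959, minus strand: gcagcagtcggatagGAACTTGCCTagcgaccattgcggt
Ccng1, chr11:40755447-40755486, minus strand: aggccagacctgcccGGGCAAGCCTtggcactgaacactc
Bax, chr7:45467075-45467114, minus strand: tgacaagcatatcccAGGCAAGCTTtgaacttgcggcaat

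The Cdkn1a window held 2 decamers, which began 73 and 51 bases before the start site and were parted by a spacer of 12 bases. Decamer pairs with a spacer of at most 13 bases, the arrangement of a complete p53 site, occurred in 24 of all windows (0.0731%). The 10 bases after the second Cdkn1a decamer matched 9 of the 10 letters of the consensus, so that a further, inexact copy follows it directly. Cdkn1a has another RefSeq start 2790 bases downstream, and the window of that start held no match. In Ccng1 the 10 bases just before the decamer also matched 9 of 10 letters. The decamers of Trp53, Mdm2, Ccng1 and Bax began 75, 186, 185 and 201 bases before their starts. No exact match lay in the windows of Cdkn2a, Cdkn2b, Fas or Bbc3, which says only that these letters are not in these windows. Matches are descriptions of sequence, and binding was not measured.

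Counts on genes came to 6888076 for the Sptbn1 heterozygote, 6856680 for the Sptbn1 homozygote, 10477425 for the Smad3 heterozygote, 21329087 for the Smad3 homozygote, 31125055 for the double heterozygote and 11407587 for WT. Of uniquely placed reads, 80.1 and 81.2% fell on genes in the Smad3 homozygote and double heterozygote, against 40.9 to 43.3% in the other 4 libraries. Their RNA make-up differed too, with the ribosomal RNA Rn18s at 349 and 1529 CPM (TMM-scaled counts-per-million), against 64661 to 87249 CPM, and the nuclear RNA Malat1 at 4473 and 335 CPM, against 30717 to 38532 CPM. Genotype and these differences cannot be told apart in those libraries, and they accompany every member call reported for them. Sptbn1 (listed as Spnb2) stood at 75.5, 54.3, 109.6, 72.0 and 48.9% of its WT level in the Sptbn1 heterozygote, Sptbn1 homozygote, Smad3 heterozygote, Smad3 homozygote and double heterozygote. Smad3 ran against the labels, at 149, 199 and 381% of WT in the libraries labelled Smad3 heterozygote, Smad3 homozygote and double heterozygote, so each genotype below means the library labelled so. A deleted exon can leave the count of its gene high. Xist, the RNA of the inactive X chromosome in female cells, stood at 2747 CPM in the Smad3 heterozygote, which nearly lacked Y-linked transcripts. WT had Y-linked transcripts and also 184 Xist counts (16.3 CPM), against 2 to 18 counts (0.0637 to 2.65 CPM) in the other 4 libraries.

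Fibroblast markers, none of 12 at 0 counts, summed to 18994 CPM in the Smad3 homozygote, 57171 in the double heterozygote, and 27706 to 35916 in the other 4 libraries. They did not move together. Against WT the Smad3 homozygote had 2 higher, Vim (2.20-fold) and S100a4 (1.97-fold), and 8 lower, led by Dcn (23.6-fold). The double heterozygote had 5 higher, led by Lum (7.41-fold), and 1 lower, Thy1 (2.57-fold). The 18 macrophage and leukocyte markers summed to 73.8 CPM in the Smad3 homozygote and 1687 to 2636 CPM elsewhere, and none of them was at 0. For the Smad3 homozygote, summed markers came to 69.4 CPM (epithelial), 480 (neural and glial), 136 (muscle) and 7.24 (endothelial). For the double heterozygote they came to 6.66, 88.2, 39.9 and 9.49 CPM, against 8.25 to 29.2, 178 to 300.3, 23.7 to 139 and 11.2 to 15.7 CPM elsewhere. In the Smad3 homozygote 3 of 7 epithelial markers were higher and 0 lower, led by Krt19 (13.54-fold) and Krt18 (8.06-fold). Of the 69.4 CPM there, Krt18 and Krt19 held 31.4 and 31.1 CPM. The remaining markers lay below WT but were not called. Cdh1 was at 0.398-fold (0.220 to 0.713) and Epcam at 0.314-fold (0.0808 to 1.088). Krt5 and Krt14 had 0 counts, against 3 and 2 in WT. In the same library 3 of 5 muscle markers were higher, with Myog at 53 counts against 0 in WT. Of 8 neural and glial markers 3 were higher there and 4 lower, with Sox10 40.4-fold lower and Gfap at 0 counts against 228 in WT. In the double heterozygote 3 epithelial and 5 neural and glial markers were lower, Sox10 10.9-fold and Gfap 35.2-fold. The part of other cells in the members' values was not tested. In RNA from mixed cells, fewer cells of a type and less RNA per cell cannot be told apart.

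Levels below are counts-per-million scaled by TMM (trimmed mean of M values). A fold is a ratio of scaled counts of 2 libraries, and the range after it is an exact Clopper-Pearson 95% interval. The intervals cover counting error only, since reads without molecular identifiers need not be separate molecules, and with 1 library per genotype no fold has a replicate check or a p-value. A gene was called higher or lower when its whole interval lay beyond 1.5-fold, among the 14824 genes that reached 1 CPM somewhere. All 10 members passed that filter. Cdkn2a passed through the Smad3 heterozygote (13 counts), the Smad3 homozygote and the double heterozygote, and the other 9 members reached 1 CPM in all 6.

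The members differed widely in how much they varied across the 6 libraries. The highest level was 1.90 times the lowest for Cdkn2b, 2.41 times for Mdm2, 2.46 times for Ccng1, 2.62 times for Trp53inp1, 3.09 times for Trp53, 3.10 times for Bax and 3.81 times for Cdkn1a. It was 17.5 times the lowest for Fas, 18.1 times for Bbc3 and 35.3 times for Cdkn2a, the members with the fewest reads in WT.

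**Figure D1:**
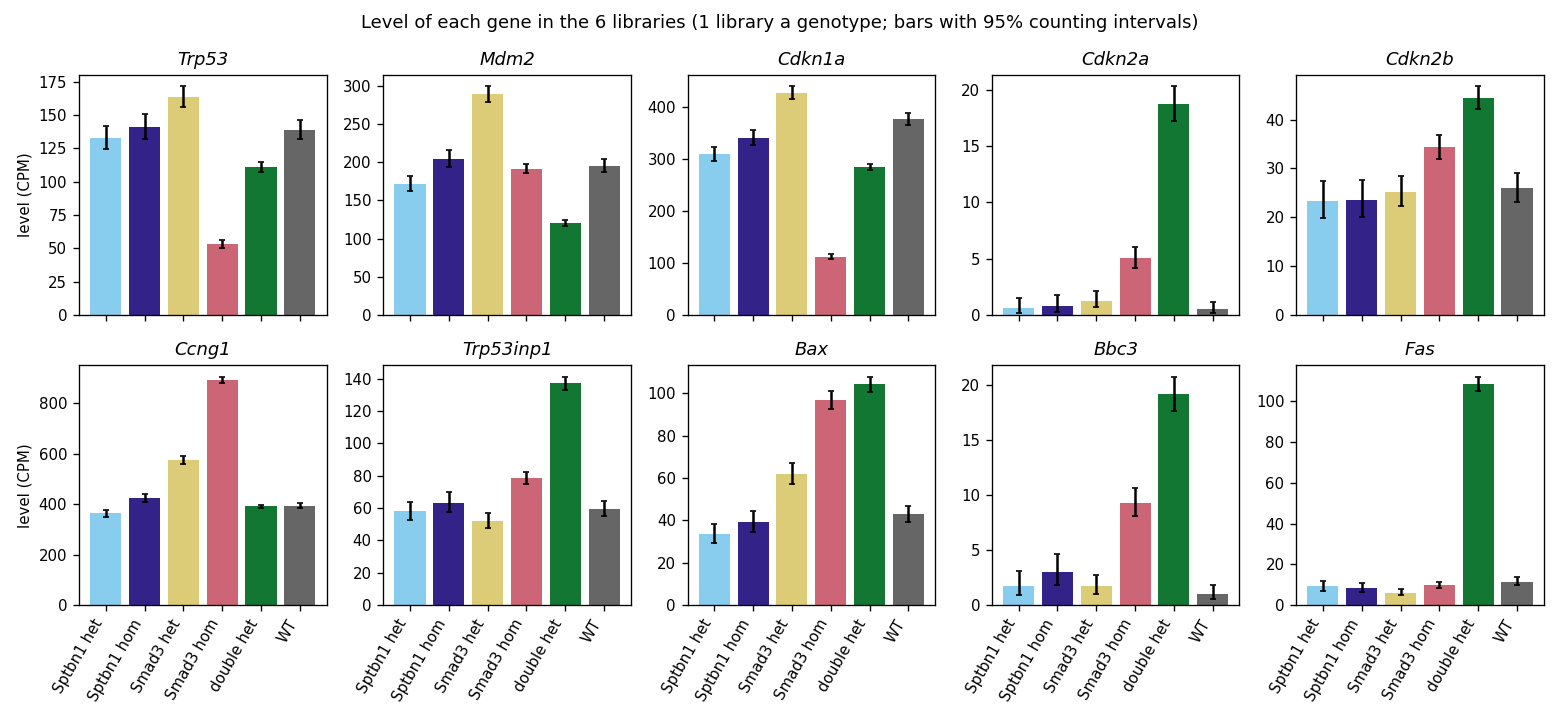
Bars give the level of each member in each of the 6 libraries, in TMM-scaled counts-per-million on linear axes that start at 0 and differ between panels, with lines for the exact 95% counting interval. Fas stands at 108.4 CPM in the double heterozygote and at 6.20 to 11.6 CPM in the others, while Cdkn1a and Trp53 are lowest in the Smad3 homozygote.

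Between genes, levels can be set side by side only per length, taken here as CPM per kilobase of exons in the GENCODE M21 annotation of GRCm38, which is not the authors' annotation. On that scale Ccng1 and Cdkn1a led in WT, at 112.3 and 106.1 CPM per kilobase. Mdm2, Trp53, Bax and Cdkn2b followed at 38.5, 34.4, 27.2 and 18.7, then Trp53inp1 at 9.22 and Fas at 5.62, and Bbc3 and Cdkn2a closed the order at 0.50 and 0.453 CPM per kilobase. In the double heterozygote the range narrowed, with Ccng1 at 111.4, Cdkn1a at 79.9, Bax at 66.1, Fas at 52.6, Cdkn2a at 16.0 and Bbc3 at 9.03 CPM per kilobase. Fas there stood above Trp53 (27.5) and Mdm2 (23.6), both of which were above it in WT. In the Smad3 homozygote Ccng1 reached 254.1 and Bax 61.4, and both exceeded Cdkn1a at 31.6 CPM per kilobase.

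Trp53 (chr11:69580359-69591873, plus strand, GRCm38), the gene of p53 itself, had 133.0 CPM in the Sptbn1 heterozygote, 141.2 in the Sptbn1 homozygote, 163.6 in the Smad3 heterozygote, 52.9 in the Smad3 homozygote, 111.1 in the double heterozygote and 139.1 in WT. The Smad3 homozygote was thus the low library, 2.63-fold below WT, and the next library above it, the double heterozygote, was 2.10-fold (1.97 to 2.24) higher. The neighbours Sptbn1 homozygote and WT, and WT and Sptbn1 heterozygote, did not differ beyond counting error. A processed copy, Trp53-ps, lies on chromosome 17, and reads shared with it could be lost or misplaced in the authors' counting.

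Mdm2 (chr10:117688875-117710758, minus strand), which encodes the ubiquitin ligase that marks p53 for degradation and is itself a p53 target, had 172.1 CPM in the Sptbn1 heterozygote, 204.9 in the Sptbn1 homozygote, 289.0 in the Smad3 heterozygote, 191.2 in the Smad3 homozygote, 119.8 in the double heterozygote and 195.6 in WT. The double heterozygote and the Smad3 heterozygote marked the ends, with the double heterozygote 2.41-fold below the Smad3 heterozygote. The Smad3 homozygote did not differ from WT beyond counting error (0.978-fold, 0.929 to 1.03), although its Trp53 level was the lowest.

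Cdkn1a (chr17:29090976-29100727, plus strand) encodes p21, the CDK inhibitor through which p53 halts the cell cycle. It had 309.2 CPM in the Sptbn1 heterozygote, 340.4 in the Sptbn1 homozygote, 427.0 in the Smad3 heterozygote, 112.1 in the Smad3 homozygote, 283.9 in the double heterozygote and 376.9 in WT. The order was that of Trp53 apart from the places of WT and the Sptbn1 homozygote, and the Smad3 homozygote was again low, 3.36-fold below WT. Every pair of neighbours in the order differed beyond counting error, but by no more than 1.13-fold except for the last step, where the double heterozygote was 2.53-fold (2.42 to 2.65) above the Smad3 homozygote. In GENCODE, 273 exon bases of Cdkn1a are shared with an antisense gene that the tables do not list, and without a stated strand setting reads of the 2 cannot be told apart there.

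Cdkn2a (chr4:89274471-89294653, minus strand) encodes both the CDK4/6 inhibitor p16Ink4a and the MDM2-binding protein p19Arf, which a count over the gene does not separate. Its counts were 4 in the Sptbn1 heterozygote, 5 in the Sptbn1 homozygote, 13 in the Smad3 heterozygote, 113 in the Smad3 homozygote, 588 in the double heterozygote and 6 in WT. These correspond to 0.589, 0.747, 1.26, 5.02, 18.7 and 0.531 CPM. The double heterozygote stood highest and 3.73-fold (3.05 to 4.60) above the Smad3 homozygote, which in turn was 3.98-fold (2.24 to 7.71) above the Smad3 heterozygote. The other 4 libraries could not be ordered at this depth, since each step between them had an interval that included 1-fold.

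Cdkn2b (chr4:89306299-89311039, minus strand), the neighbour of Cdkn2a on chromosome 4, encodes the CDK4/6 inhibitor p15Ink4b, which TGF-beta is known to induce in epithelial cells. It had 23.4 CPM in the Sptbn1 heterozygote, 23.6 in the Sptbn1 homozygote, 25.2 in the Smad3 heterozygote, 34.3 in the Smad3 homozygote, 44.4 in the double heterozygote and 26.0 in WT. The libraries that were highest for Cdkn2a were also highest here, over a far smaller range, and the other 4 did not differ between neighbours beyond counting error.

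Ccng1 (chr11:40748552-40755311, minus strand), which encodes cyclin G1, a p53 target that acts back on the p53 and MDM2 circuit, had 363.4 CPM in the Sptbn1 heterozygote, 424.1 in the Sptbn1 homozygote, 575.2 in the Smad3 heterozygote, 892.5 in the Smad3 homozygote, 391.3 in the double heterozygote and 394.3 in WT. The Smad3 homozygote was the high library and the Smad3 heterozygote came next, 1.55-fold (1.51 to 1.60) lower. In the Smad3 homozygote Ccng1 thus ran opposite to Cdkn1a and Trp53. The double heterozygote and WT did not differ beyond counting error.

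Trp53inp1 (chr4:11156431-11174379, plus strand), a p53-induced gene of the stress response, had 58.0 CPM in the Sptbn1 heterozygote, 63.4 in the Sptbn1 homozygote, 52.3 in the Smad3 heterozygote, 78.5 in the Smad3 homozygote, 137.1 in the double heterozygote and 59.7 in WT. The double heterozygote was high, 1.75-fold (1.65 to 1.85) above the next library, and the 4 lowest did not differ between neighbours.

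The death genes comprise Bax and Bbc3, which act at mitochondria, and the cell-surface receptor Fas. Bax (chr7:45461697-45466898, minus strand), whose protein forms pores in the outer mitochondrial membrane, had 33.6 CPM in the Sptbn1 heterozygote, 39.3 in the Sptbn1 homozygote, 61.9 in the Smad3 heterozygote, 96.7 in the Smad3 homozygote, 104.2 in the double heterozygote and 42.8 in WT. In GENCODE it shares 192 exon bases with a predicted gene on the same strand that the tables do not list. All 3 libraries that carry a mutant Smad3 allele by label were above the 3 that do not. Bbc3 (chr7:16308393-16318205, plus strand), which encodes PUMA, a protein that frees BAX from its inhibitors, had 12, 20, 18, 210, 602 and 12 counts in the Sptbn1 heterozygote, Sptbn1 homozygote, Smad3 heterozygote, Smad3 homozygote, double heterozygote and WT. That is 1.77, 2.99, 1.74, 9.33, 19.2 and 1.06 CPM, with the double heterozygote 2.06-fold (1.75 to 2.42) above the Smad3 homozygote and no detectable order among the 3 lowest. Fas (chr19:34290666-34327772, plus strand), a death receptor of the TNF receptor family, had 9.28, 8.37, 6.20, 9.77, 108.4 and 11.6 CPM in the same libraries. It was high in the double heterozygote alone, where 3404 reads lay on it, and no step between neighbours among the other 5 exceeded counting error.

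Against WT, the Sptbn1 heterozygote and homozygote had none of the 10 members called, where the rule called 1.83% and 1.06% of all genes. As a ratio alone Bbc3 passed 1.5-fold in both (1.66 and 2.82), on 12 and 20 counts. The median log2 ratio of the members was -0.13 in the heterozygote and 0.04 in the homozygote, beside medians of all genes near 0 (-0.01 and 0.00). In the heterozygote the intervals of 4 members lay below 1-fold, those of Cdkn1a (0.820, 0.778 to 0.865), Mdm2 (0.880), Ccng1 (0.922) and Bax (0.784, 0.667 to 0.920), and 12.6% of all genes had such an interval. No member's interval lay above 1-fold, where that of 10.9% of all genes did. In the homozygote Cdkn1a (0.903) and Fas (0.722, 0.518 to 0.995) lay below 1-fold, and Ccng1 (1.08) and Bbc3 (2.82, 1.31 to 6.32) above it, against 10.2% and 9.96% of all genes. Between the Sptbn1 homozygote and heterozygote no member was called, with 1.3% of all genes called.

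The Smad3 heterozygote also had no member called against WT (6.09% of all genes called). As ratios alone Cdkn2a (2.37, 0.84 to 7.6), Bbc3 (1.64, 0.75 to 3.7) and Fas lay past 1.5-fold, and others lay near it. Mdm2 was at 1.48-fold (1.40 to 1.56), Ccng1 at 1.46-fold (1.40 to 1.52) and Bax at 1.45-fold (1.28 to 1.63) of WT. With Trp53 (1.18) and Cdkn1a (1.13) these made 5 of 10 members with an interval above 1-fold, against 20.4% of all genes. Fas was at 0.535-fold (0.390 to 0.727) and Trp53inp1 at 0.876-fold, the 2 members with an interval below 1-fold, against 19.5% of all genes. The median log2 ratio was 0.38 for the members and 0.01 for all genes. The Smad3 heterozygote and WT also differed in Xist and Y-linked transcripts as given above, and the part of sex was not tested.

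In the Smad3 homozygote 6 members were called against WT, 4 higher and 2 lower, where the rule called 49.4% of all genes (24.2% higher and 25.2% lower), so the members' share was near the background. Bbc3 was 8.79-fold (4.93 to 17.3), Cdkn2a 9.46-fold (4.21 to 26.3), Ccng1 2.26-fold (2.19 to 2.34) and Bax 2.26-fold (2.05 to 2.50) higher. Trp53 and Cdkn1a were 2.63-fold and 3.36-fold lower. Cdkn2b (1.32, 1.15 to 1.51), Trp53inp1 (1.31, 1.20 to 1.44), Mdm2 and Fas (0.843, 0.676 to 1.06) were not called. Known p53 targets thus lay on both sides, with Cdkn1a low while Bax, Bbc3 and Ccng1 were high in the same library. Against the Smad3 heterozygote, where 45.0% of all genes were called (22.7% higher and 22.3% lower), Bbc3 (5.35), Cdkn2a (3.98) and Ccng1 (1.55) were higher, and Trp53 (0.323) and Cdkn1a (0.263 of the heterozygote's level) lower. Ccng1 lost that call under DESeq2 size factors, a limit of 2-fold and intervals widened by the dispersion between libraries.

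In the double heterozygote 7 members were called against WT, 6 higher and 1 lower, with 40.7% of all genes called (21.6% higher and 19.1% lower). Cdkn2a was 35.3-fold (16.1 to 96.5), Bbc3 18.1-fold (10.3 to 35.1) and Fas 9.35-fold (7.86 to 11.2) higher. Bax (2.43, 2.21 to 2.68), Trp53inp1 (2.30, 2.12 to 2.49) and Cdkn2b (1.71, 1.51 to 1.94) were higher by less. Mdm2 was 1.63-fold lower, while Trp53 (0.799, 0.752 to 0.848), Cdkn1a (0.753, 0.726 to 0.782) and Ccng1 (0.992, 0.959 to 1.03) were not called. The calls of Cdkn2b and Mdm2 were lost with intervals widened by the dispersion between libraries, and that of Cdkn2b under DESeq2 size factors. The median log2 ratio was 0.98 for the members and 0.06 for all genes, against 0.40 and 0.05 in the Smad3 homozygote.

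**Figure D2:**
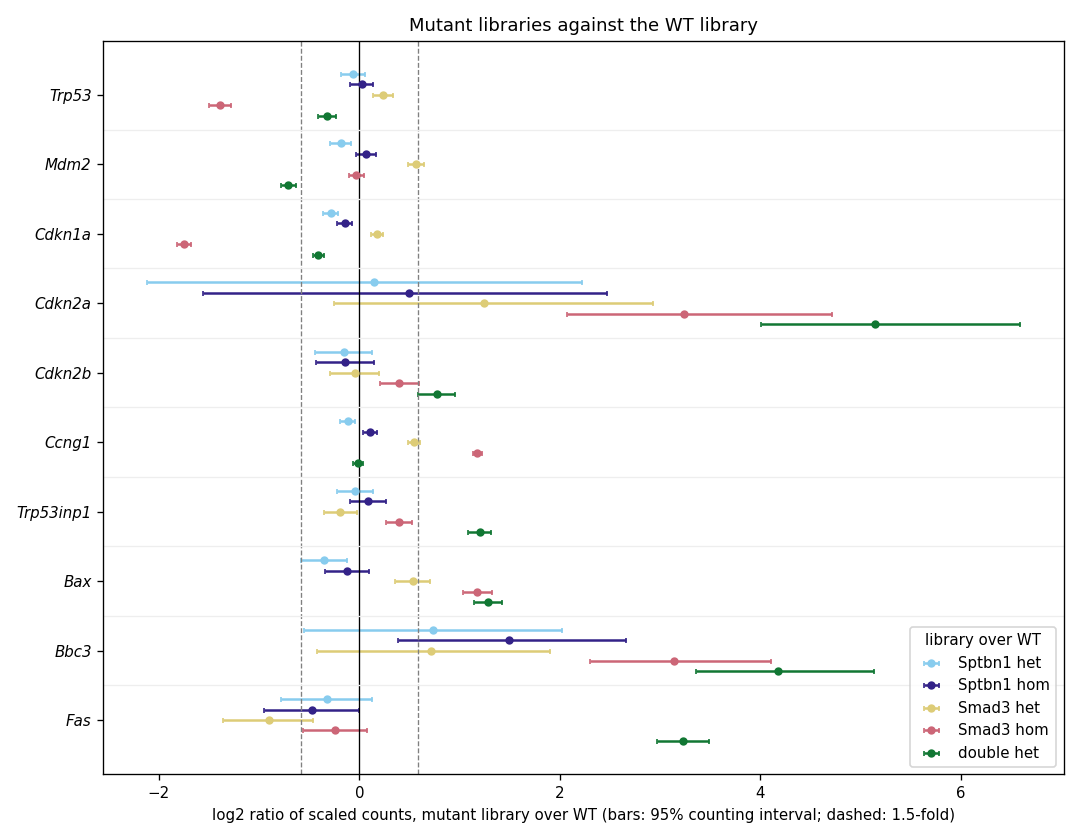
Log2 ratio of each member to WT in the 5 mutant libraries, with bars for the exact 95% counting interval and dashed lines at 1.5-fold. The Sptbn1 libraries and the Smad3 heterozygote have no member whose whole interval passes the lines, and Cdkn2a and Bbc3 reach log2 ratios of 5.14 and 4.17 in the double heterozygote.

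The double heterozygote differed from each single heterozygote much as from WT. Against the Sptbn1 heterozygote 6 members were higher and none lower (39.4% of all genes called, 21.1% higher and 18.2% lower), and against the Smad3 heterozygote 6 were higher and 1 lower (41.5% called, 22.5% higher and 18.9% lower). Under DESeq2 size factors the count against the Smad3 heterozygote was 4 higher and 3 lower, with 41.4% of all genes called. There Cdkn2b and Bax lost their calls and Cdkn1a and Ccng1 gained one. Fas was 11.7-fold (9.11 to 15.2) and 17.5-fold (13.7 to 22.7) higher, Bbc3 10.9-fold and 10.99-fold, and Cdkn2a 31.8-fold and 14.9-fold. Mdm2 was at 0.696-fold (0.652 to 0.744) of the Sptbn1 heterozygote, not called, and at 0.415-fold (0.395 to 0.435) of the Smad3 heterozygote. These comparisons share the double heterozygote library, and those against WT share WT, so they do not bear on each other as separate measurements.

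Setting the Smad3 homozygote against the double heterozygote compares the 2 libraries with a like share of reads on genes, which were unlike in other ways. Malat1 stood at 4473 and 335 CPM and Rn18s at 349 and 1529 CPM. Summed macrophage and leukocyte markers came to 73.8 and 1955 CPM, and fibroblast markers to 18994 and 57171 CPM. Ambiguous reads made up 0.025 and 0.827% of all records. The part of these differences was not tested. Of the members, 2 were higher and 6 lower in the Smad3 homozygote, with 43.1% of all genes called (19.8% higher and 23.3% lower). Ccng1 was 2.28-fold and Mdm2 1.60-fold higher there. Fas was 11.1-fold lower, Cdkn2a 3.73-fold, Cdkn1a 2.53-fold, Trp53 2.10-fold, Bbc3 2.06-fold and Trp53inp1 1.75-fold lower. Bax (0.928) and Cdkn2b (0.772) were not called. The count of 8 called members was 4 at a limit of 2-fold and 5 with widened intervals, where 26.7% and 30.2% of all genes were called.

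The design asks whether the double heterozygote departs from what the single heterozygotes add up to. The departure was the log2 level in the double heterozygote minus those in the Sptbn1 and Smad3 heterozygotes plus that in WT. Its 95% counting interval lay beyond 1.5-fold for 7 members, against 35.0% of all genes. The departure was 4.43 ± 0.29 (counting SE) for Fas, 3.64 ± 0.97 for Cdkn2a, 2.68 ± 0.67 for Bbc3, 1.43 ± 0.11 for Trp53inp1, 1.10 ± 0.13 for Bax and 0.97 ± 0.17 for Cdkn2b. For Mdm2 it was -1.09 ± 0.06, and for Trp53 (-0.49), Ccng1 (-0.44) and Cdkn1a (-0.30) it did not pass. The Fas departure amounts to 21.6-fold. The median was 1.03 over the members and 0.08 over all genes. At a limit of 2-fold 4 members passed, and the share of all genes at that limit is not given here. The departure rests on the double heterozygote, whose share of reads on genes was unlike that of the other 3 libraries in it, and the part of that difference was not tested.

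**Figure D3:**
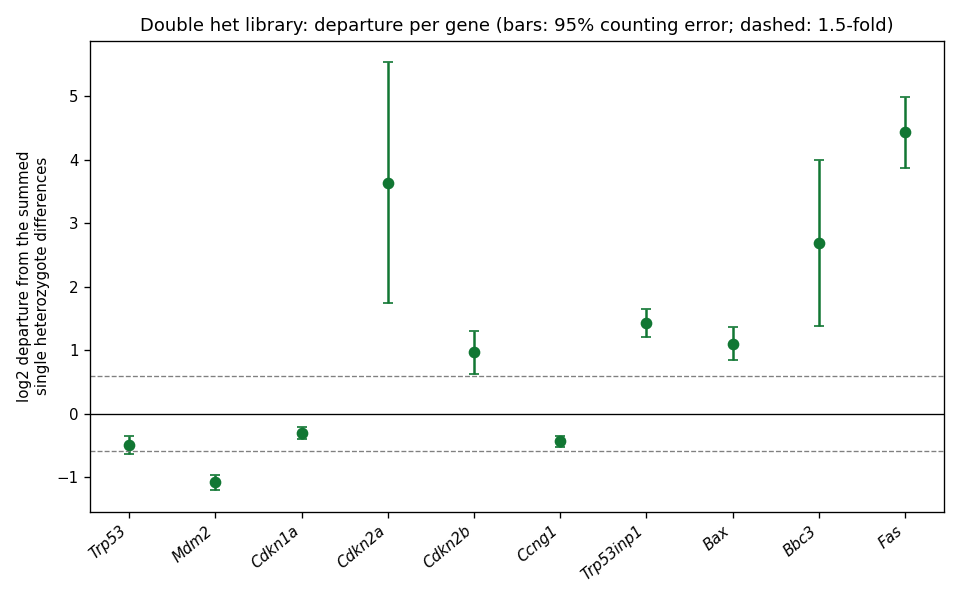
Log2 departure of the double heterozygote from the summed differences of the single heterozygotes for each member, with bars for the 95% counting error and dashed lines at 1.5-fold. Fas, Cdkn2a and Bbc3 lie farthest above 0, at 4.43, 3.64 and 2.68, and Mdm2 lies below, at -1.09.

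A model of all 6 libraries on how many alleles of Sptbn1 and of Smad3 were mutant by label gave the tests that the design allows, with 3 residual degrees of freedom. By edgeR's quasi-likelihood test with Benjamini-Hochberg adjustment, 0 of 10 members passed an adjusted p of 0.05 for either gene, and 0.0% of 14091 genes did. At an unadjusted p under 0.05 there were 22 genes for Sptbn1 and 3405 for Smad3, and DESeq2's Wald test called 0 and 2048 of the 14091 genes. Per labelled Smad3 allele, the lowest adjusted p among the members was that of Bbc3, with a log2 slope of 2.09 (SE 0.58, edgeR adjusted p = 0.161). Bax had a slope of 0.82 (SE 0.24, edgeR adjusted p = 0.164) and Cdkn2a one of 2.72 (SE 0.98, edgeR adjusted p = 0.185). The slopes of Ccng1 (0.51), Trp53 (-0.59) and Cdkn1a (-0.69) had edgeR adjusted p-values of 0.220, 0.258 and 0.266. DESeq2 put 3 members past the threshold, Bbc3 (adjusted p = 0.0152), Cdkn2a (adjusted p = 0.0250) and Bax (adjusted p = 0.0487). The libraries with 80.1 and 81.2% of uniquely placed reads on genes carry 2 and 1 labelled mutant Smad3 alleles. The Smad3 slopes therefore cannot be told apart from that difference between libraries. The model also takes allele effects as additive in log2, while the departure above passed 1.5-fold for 7 members and 35.0% of all genes. For Sptbn1 the log2 slope of Bbc3 was 1.49 per allele (edgeR adjusted p = 0.99983), and all 10 members had that adjusted p.

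Other genes of the pathway were counted from lists of known members. Each count is to be read against all genes, of which 24.2% were higher and 25.2% lower in the Smad3 homozygote, and 21.6% higher and 19.1% lower in the double heterozygote. Of 39 other p53 targets, 13 were higher and 8 lower in the Smad3 homozygote against WT, and 12 higher and 3 lower in the double heterozygote. As shares these were 33.3 and 20.5%, near those of all genes, and 30.8 and 7.69%. None was called in either Sptbn1 library, and 1 was lower in the Smad3 heterozygote, the heparan sulphatase gene Sulf2 (1.99-fold). In the Smad3 homozygote the apoptosis-enhancing nuclease gene Aen (6.01-fold) and the BH3-only gene Pmaip1 (4.41-fold) were higher, as was Klhl26 (4.55-fold). The peptide transporter gene Tap1 (4.29-fold), the RNA-binding zinc finger gene Zmat3 (3.97-fold) and the autophagy gene Trp53inp2 (10.4-fold) were lower. In the double heterozygote Dram1 (3.47-fold), an autophagy gene, Aen (3.25-fold) and the epoxide hydrolase gene Ephx1 (3.04-fold) were higher. The mitotic gene Ckap2 (1.98-fold), the DNA polymerase gene Polk (1.81-fold) and Zmat3 (1.68-fold) were lower there. The list's median log2 ratio was 0.36 for the Smad3 homozygote and 0.31 for the double heterozygote. With widened intervals the double heterozygote had 7 higher and 0 lower, beside 2166 higher and 2070 lower of all 14824 genes.

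Of 20 regulators of p53, 4 were higher and 6 lower in the Smad3 homozygote. The double heterozygote had 3 higher and 8 lower. These are 20% and 30% in the Smad3 homozygote, near the shares of all genes, and 15% and 40% in the double heterozygote. The acetyltransferase gene Crebbp was 4.08-fold and 4.88-fold lower and the kinase gene Hipk2 4.69-fold and 3.35-fold lower in the Smad3 homozygote and the double heterozygote. Ep300, whose protein acetylates p53, was 8.37-fold lower in the Smad3 homozygote, and the ubiquitin ligase gene Rfwd2 3.26-fold lower in the double heterozygote. Wrap53, which adjoins Trp53 on the other strand, was 6.05-fold and 2.48-fold higher in these libraries, while Trp53 was not higher in either library. The ubiquitin ligase gene Rchy1 (2.23-fold) and the p53 relative Trp63 (9.60-fold) were higher in the double heterozygote. Npm1, which encodes nucleophosmin and binds ARF, was 5.14-fold and the kinase gene Atr 1.996-fold higher in the Smad3 homozygote. Npm1 was also 1.83-fold and 1.76-fold higher in the Sptbn1 heterozygote and homozygote, calls that were lost with widened intervals. The Smad3 heterozygote had 0 of 20 called.

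Among 5 other CDK inhibitor genes, the Smad3 homozygote and the double heterozygote each had 3 higher (60%, of a list too short for a share to say much). They were Cdkn1b (2.23-fold and 3.19-fold), which encodes p27, Cdkn1c (2.01-fold and 2.82-fold), which encodes p57, and Cdkn2d (5.10-fold and 4.98-fold), an Ink4 gene outside the Cdkn2a locus. Cdkn2c, a further Ink4 gene, was 1.87-fold lower in the double heterozygote. Of 16 regulators of the Ink4/Arf locus, 6 were higher and 3 lower in the Smad3 homozygote, and 3 higher and 1 lower in the double heterozygote. The shares were 37.5 and 18.8% in the Smad3 homozygote and 18.8 and 6.25% in the double heterozygote, the last pair at or below those of all genes. The Polycomb gene Cbx8 was 5.20-fold higher in the Smad3 homozygote, and 4.42-fold higher for the double heterozygote. The repressor gene Tbx2 was 5.47-fold higher and the histone demethylase gene Kdm6b 14.5-fold lower in the Smad3 homozygote. In the same library Zbtb7a (3.39-fold) and Tbx3 (3.17-fold), both encoding repressors of Arf, were lower. In the double heterozygote Cbx7 (2.62-fold) and Ets2 (2.23-fold), an activator of p16Ink4a, were higher, and the Polycomb gene Suz12 was 1.63-fold lower. Id1, which restrains p16Ink4a transcription, was 2.31-fold higher in the Smad3 heterozygote and 5.36-fold higher in the Smad3 homozygote.

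Genes downstream of the inhibitors were counted next. Of 16 proliferation genes, 13 were higher and 1 lower in the Smad3 homozygote, whereas the double heterozygote had 0 higher and 10 lower. That is 81.2% higher and 6.25% lower, where all genes had 24.2 and 25.2%, and 0.0% higher and 62.5% lower, where all genes had 21.6 and 19.1%. None was called in the other 3 mutant libraries. The mitotic cyclin gene Ccnb1 was 20.8-fold higher in the Smad3 homozygote, and the replication genes Mcm5 and Pcna were 5.37-fold and 3.48-fold higher, while Mki67 was 2.15-fold lower. In the double heterozygote Mki67, Ccna2 and Ccnb1 were 4.85-fold, 3.59-fold and 3.45-fold lower. Of the inhibitor genes in the Smad3 homozygote, Cdkn1a was lower, while Cdkn2a, Cdkn1b (2.23-fold), Cdkn1c (2.01-fold) and Cdkn2d (5.10-fold) were higher. In the double heterozygote Cdkn2a, Cdkn2b, Cdkn1b, Cdkn1c and Cdkn2d were higher, Cdkn2c was lower and Cdkn1a (0.753-fold) was not called. A link between inhibitor and proliferation genes was not tested. With widened intervals the counts of proliferation genes were 7 higher in the Smad3 homozygote and 6 lower in the double heterozygote. Of all 14824 genes, 2535 were higher and 2070 lower in these libraries by that rule. Of 17 genes of the RB and CDK axis, 7 were higher and 4 lower in the Smad3 homozygote (41.2 and 23.5%), with the cyclin genes Ccne2 (5.65-fold), Ccne1 (5.22-fold) and Ccnd1 (3.69-fold) higher and E2f2 (3.12-fold), Rb1 (2.71-fold) and Cdk6 (2.30-fold) lower. The double heterozygote had 2 higher, Cdk2 (1.98-fold) and Ccnd3 (1.74-fold), and 2 lower, Cdk6 (5.68-fold) and E2f7 (2.20-fold), or 11.8% each, below the shares of all genes. Ccnd1 was 1.66-fold higher in the Smad3 heterozygote.

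Of 19 other genes of the BCL2 family and the death receptor pathway, 4 were higher and 1 lower in the Smad3 homozygote, and 5 higher and 2 lower in the double heterozygote. As shares these were 21.1 and 5.26%, and 26.3 and 10.5%, none far above those of all genes. Bid, which links death receptors to BAX, was 3.06-fold higher in the double heterozygote, the library with high Fas. The ligand gene Fasl had 0 counts in the double heterozygote. Bok, a BAX relative, was 3.89-fold higher in the Smad3 homozygote and 2.27-fold lower in the double heterozygote. The survival gene Bcl2l1 was 3.39-fold higher in the Smad3 homozygote, and Bcl2 was 2.81-fold lower in the double heterozygote. The BH3-only genes Bcl2l11 and Bmf were 1.91-fold lower in the Smad3 homozygote and 2.80-fold lower in the Smad3 heterozygote, each the sole gene of the list lower there.

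Secreted and other senescence-linked genes were set beside Cdkn2a. Of 20 such genes the double heterozygote had 9 higher and 3 lower, and the Smad3 homozygote 6 higher and 9 lower. The shares were 45% and 15% in the double heterozygote, against 21.6 and 19.1% of all genes, and 30% and 45% in the Smad3 homozygote, against 24.2 and 25.2%. Cxcl1 (43.4-fold), Il6 (11.7-fold) and Mmp3 (9.20-fold), a chemokine, a cytokine and a matrix protease of the senescence secretome, were higher in the double heterozygote. The growth factor gene Ctgf (4.98-fold) and the transcription factor gene Bhlhe40 (2.02-fold) were lower there. In the Smad3 homozygote Mmp13 (89.4-fold) and Mmp3 (19.96-fold) were lower and Plaur (3.76-fold) and Gdf15 (4.80-fold), a stress-induced cytokine gene, higher. The cytokine gene Il1a had 1 count there, against 69 in WT (137-fold lower, 23.9 to 5505). Lmnb1, the lamin gene whose loss marks senescent cells, was 3.52-fold higher in the Smad3 homozygote. In the double heterozygote Lmnb1 was not lower either, at 50.1 CPM against 34.1 CPM in WT. The list had 0 higher and 6 lower in the Sptbn1 heterozygote, 0 and 2 in the Sptbn1 homozygote, and 1 and 5 in the Smad3 heterozygote. Mmp3 was lower in all 3, by 2.48-fold, 1.995-fold and 3.36-fold. Macrophage markers, whose cells also make several of these factors, had 6, 2 and 2 of 18 lower in the Sptbn1 heterozygote, Sptbn1 homozygote and Smad3 heterozygote, which had 0, 0 and 1 higher. The Smad3 homozygote had 18 of 18 lower, and the double heterozygote 2 higher and 9 lower. Their part in these counts was not tested.

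**Figure D4:**
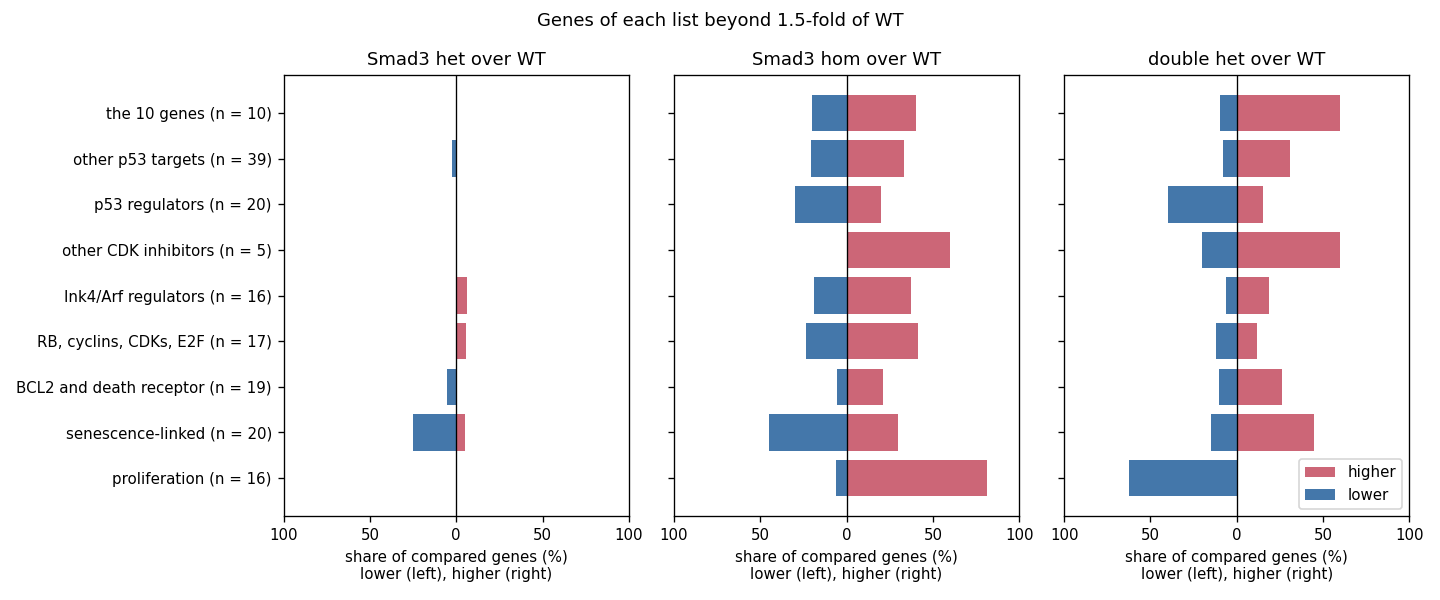
Share of the compared genes of each list, in percent, called higher (right of 0) or lower (left of 0) than WT beyond 1.5-fold, for the Smad3 heterozygote, Smad3 homozygote and double heterozygote. Of 16 proliferation genes, 13 are higher and 1 is lower in the Smad3 homozygote, with 0 higher and 10 lower in the double heterozygote.

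The genes whose levels ran most like those of 3 members over the 6 libraries were found by the root mean square difference of centred log2 levels. The search covered 11205 genes that reached 5 CPM somewhere, with predicted gene models (Gm and Rik names) left out. For Trp53 they were Med15 (0.03), Pde4a (0.06) and Gse1 (0.06), and for Cdkn1a Ankrd52 (0.08), Pde4a (0.09) and Mef2d (0.10). Trp53 was itself among the closest to Cdkn1a, at rank 9 with a difference of 0.12. For Cdkn2a the nearest were Rspo2 (0.27), Pcx (0.28) and Rnd1 (0.34), and the nearest other member was Bbc3 at rank 23 (0.61). These values describe 6 libraries of unlike depth and make-up.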

How the data were processed

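RNA of 6 fibroblast cultures, 1 per genotype, was made into libraries with an Illumina TruSeq RNA kit from 1 ug of total RNA, per the labels' protocols. The authors deposited a table of raw counts per gene for each library. The build mm9 and the tools TopHat2 2.0.10, HTSeq, DESeq2, FastQC and Trimmomatic are named in the submitters' processing notes, while the annotation and strand setting are not given in the sources used here. The 5 summary lines of each table were left out. No column of values was left unmapped.

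Counts were scaled with TMM in edgeR 4.0.16 (R 4.3.3), and ratios and intervals were computed for 10 pairs of libraries with scipy 1.17.1. The allele-number model used edgeR's robust quasi-likelihood fit with Benjamini-Hochberg adjustment over 14091 genes that reached 1 CPM in at least 2 libraries. The departure added 0.5 counts to each library. The alternatives were DESeq2 1.42.0 size factors and Wald test, total counts, other filters, a limit of 2-fold, each library left out in turn, and widened intervals. The widened intervals add the biological coefficient of variation of the libraries other than the Smad3 homozygote and double heterozygote, 0.1125, where that of all 6 was 0.467. Locations and lengths are from GENCODE M21 (GRCm38), not mm9. The pair rule and the model were tested on simulated data.

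The members and all lists were chosen with earlier results of these data known. From each list, the text names up to 3 genes higher and 3 lower per comparison with WT whose interval bound nearest to 1-fold was largest. Some genes that this rule selects are not reported here.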

Additional observations from a re-analysis of the deposited data

Results flagged for a closer look

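For 6 members, libraries 1 labelled mutant allele apart differed with opposite signs on the 2 genetic backgrounds, with both counting intervals away from 1-fold. The share of all genes that meets this rule is not given here, so the count is not a result about the members. Each difference is between single libraries, and whether the 2 effects differ was not tested beyond counting error. For the Smad3 allele, Fas had a log2 ratio of 3.55 between the double heterozygote and the Sptbn1 heterozygote, against -0.90 between the Smad3 heterozygote and WT. Trp53inp1 had 1.24 and -0.19 in the same comparisons. Mdm2 went the other way, with -0.52 and 0.56, and so did Trp53, with -0.26 and 0.23, and Cdkn1a, with -0.12 and 0.18. For the Sptbn1 allele, Bax had a log2 ratio of 0.75 between the double heterozygote and the Smad3 heterozygote, against -0.35 between the Sptbn1 heterozygote and WT. In each pair the first value comes from the double heterozygote, with 81.2% of uniquely placed reads on genes, and the second from libraries at 41.7 to 43.3%. The part of that difference was not tested. No genotype had enough libraries for a check of single libraries within a group.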

How the results depend on the processing

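No paired analysis was possible because there was 1 library per genotype and the labels give no replicate numbers. No member changed direction under any alternative where it was called. The 8 members called between the Smad3 homozygote and the double heterozygote were 4 at a limit of 2-fold (26.7% of all genes) and 5 with widened intervals (30.2%). The 7 with a departure were 4 at 2-fold. The count of members past the threshold per Smad3 allele was 0 by edgeR, 3 by DESeq2's Wald test and 1, Ccng1, in the fit without the Smad3 homozygote and double heterozygote together, which was chosen after seeing the data. There the Smad3 arm is the lone Smad3 heterozygote, assumed to vary like the others and apart from them in Xist, so this count compares that library with the rest and is no test of the allele. With each library left out in turn, the edgeR count was 0 to 0 for both genes. Under DESeq2 size factors, Cdkn2b (log2 ratio 0.72) and Bax (0.66) in the double heterozygote against the Smad3 heterozygote lost their calls, while Cdkn1a (-0.68) and Ccng1 (-0.65) gained one, as did Mdm2 in the Smad3 homozygote against the Smad3 heterozygote (-0.67). With total counts Bax gained a call there (0.74). Depth limits Cdkn2a and Bbc3 in the Sptbn1 libraries, the Smad3 heterozygote and WT, where they had 4 to 20 counts.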
